A study of Zea mays with 6 samples.

Results

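Maize fixes carbon by the C4 pathway, and 5 genes for enzymes of the part of that pathway that runs in mesophyll cells were measured in leaves of 2 inbred lines under drought. The genes were Zm00001d046170 (C4 phosphoenolpyruvate carboxylase, PEPC), Zm00001d038163 (pyruvate orthophosphate dikinase, PPDK), Zm00001d031899 (NADP malate dehydrogenase, NADP-MDH), and Zm00001d044096 and Zm00001d044099 (carbonic anhydrases). The carbonic anhydrases are called CA-44096 and CA-44099 here, after the last digits of their identifiers. Members were chosen by identifier and enzyme, not by their counts, but with earlier results of these data known. They are 5 of the 46430 genes listed. All 5 had enough counts to be among the 22135 genes tested. The enzyme names came with the choice of identifiers: the count files hold identifiers alone, and the RefSeq gene table (assembly Zm-B73-REFERENCE-NAM-5.0) paired none of the 44146 identifiers of this kind with a name.

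Leaf RNA came from B73, on which the maize reference genome was built and which the labels mark as WT, and from W9706, another inbred line. Both lines had been under drought for 7 days, so drought is shared by all libraries and no response to it can be computed. Seedlings grew in soil in a chamber (26°C, light for 14 h and darkness for 10 h a day), and RNA was taken from the third leaf. There were 3 libraries per line. Whether these came from separate plants is not stated, so p-values measure the spread between libraries, which may be technical.

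In C4 leaves the mesophyll captures carbon dioxide and hands it on to the bundle sheath, the cell layer around the veins. Carbonic anhydrase turns carbon dioxide into bicarbonate, PEPC joins bicarbonate to phosphoenolpyruvate to make oxaloacetate, and NADP-MDH reduces oxaloacetate to malate in the mesophyll chloroplast. Malate moves to the bundle sheath, where carbon dioxide is released for Rubisco, and the pyruvate that returns is turned back into phosphoenolpyruvate by PPDK. PEPC and PPDK are among the most abundant proteins of the maize leaf. The maize C4 PPDK gene is also known to make a cytosolic form from an internal promoter, and a count per gene adds both forms.

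The libraries held 21084151 to 32088105 counts in genes. Levels are given in CPM, edgeR's count scaled by library size, after TMM scaling (a correction for library composition). The TMM factors themselves separated the lines, at 0.893 to 0.922 in B73 and 1.10 to 1.11 in W9706. Unmapped reads made up 13.1 ± 0.62% of all reads listed in B73 and 13.2 ± 0.24% in W9706 (SD, n = 3). Aligned reads in no annotated gene made up 3.73 ± 0.05% for B73 and 4.24 ± 0.08% for W9706, and the lines did not overlap (exact two-sided permutation p of 0.1, the lowest possible). Their part in the values below was not tested. Reads of both lines were counted on gene models with B73 identifiers. Fewer counts in W9706 and fewer W9706 reads aligned to a B73 gene model cannot be told apart for a single gene. In whole leaves, fewer mesophyll cells and less RNA per cell cannot be told apart either. Symbols for other C4 genes and for markers of bundle sheath, epidermis, vascular tissue, meristem and root, 52 symbols in 7 lists, could not be paired with identifiers, so the mesophyll origin of these counts was not tested.

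All 5 genes were lower in W9706 than in B73. The difference was 4.32-fold for PEPC, 4.39-fold for CA-44099, 2.84-fold for PPDK, 1.86-fold for NADP-MDH and 1.42-fold for CA-44096. Each passed the edgeR quasi-likelihood test at a Benjamini-Hochberg adjusted p under 0.05 over all genes tested, with 5 lower and 0 higher, although the call of CA-44096 was lost under most alternatives. Of all genes tested, 34.2% passed that test, 19.0% lower and 15.2% higher in W9706. PEPC, PPDK and CA-44099 were called and over 2-fold lower, as were 8.30% of all genes tested. The median log2 fold change (W9706 relative to B73) was -1.51 for the 5 genes and 0.01 for all genes tested. Lower values were common among abundant genes. Of the other 96 genes in the 100 with the highest mean CPM, 51 were called lower and 11 called higher. The median log2 fold change of these 96 genes was -0.63. In the TMM-scaled CPM the libraries of the lines did not overlap for any of the 5 genes, W9706 being lower each time, as it was for 25.8% of all genes tested.

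**Figure D1:**
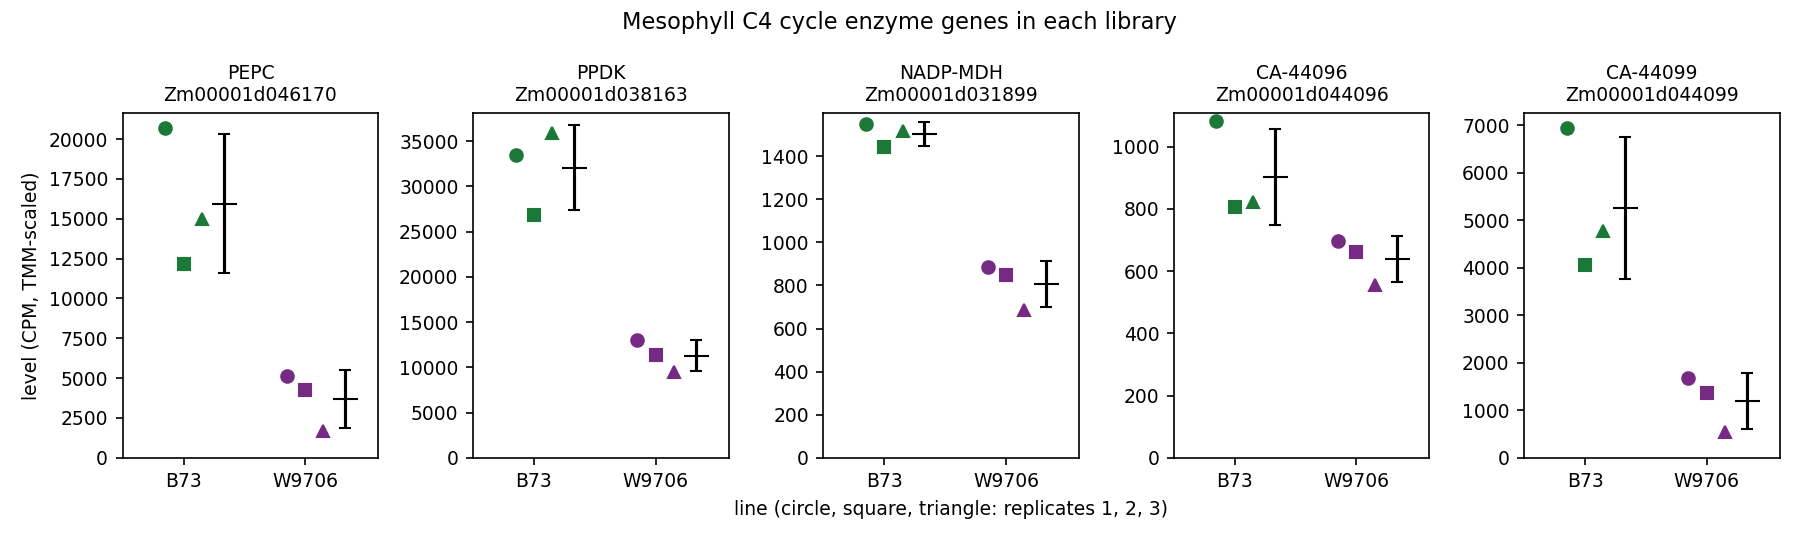
Level of each gene in CPM with TMM scaling in the 3 B73 libraries (green) and the 3 W9706 libraries (purple), with the mean and SD of each line as a black bar, on axes that start at 0. In every panel the 3 W9706 libraries lie below the 3 B73 libraries, and W9706 replicate 3 (triangle) is the lowest.

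Carbonic anhydrase acts first in the cycle, and the 2 genes differed in how far the lines were apart. CA-44099 had 6943, 4061 and 4783 CPM in B73, in the order of replicates 1 to 3, and 1683, 1360 and 553 CPM in W9706 in the same order. Every B73 library was at least 2.41 times as high as every W9706 library, and W9706 replicate 3 was the lowest of all. The log2 fold change was -2.13 ± 0.43 (SE, edgeR adjusted p of 0.00829). The mean was 5262 ± 1500 CPM for B73 and 1199 ± 582 CPM for W9706 (SD, n = 3).

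CA-44096 was counted less often than CA-44099 in B73 and lay closer together between the lines. It had 1082, 805 and 822 CPM in B73 and 698, 661 and 555 CPM in W9706, so that the lowest B73 library was 1.15 times the highest W9706 library. Its log2 fold change was -0.50 ± 0.17 (SE), with a 95% interval from -0.89 to -0.12 and an edgeR adjusted p of 0.0488, just inside the threshold. By library totals without TMM scaling the lines overlapped, at 734 to 979 CPM in B73 and 611 to 775 CPM in W9706. With library size alone the log2 fold change was -0.22 (edgeR adjusted p of 0.306), where the median of all genes was moved to 0.29, and the call was also lost without any one of the 6 libraries (edgeR adjusted p of 0.0537 to 0.135).

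PEPC, which makes the first stable C4 acid, had 20687, 12133 and 15017 CPM in B73 and 5135, 4264 and 1669 CPM in W9706. B73 replicate 1 was the highest and W9706 replicate 3 the lowest, the same libraries as for CA-44099. The log2 fold change was -2.11 ± 0.43 (SE, edgeR adjusted p of 0.00794), with means of 15945 ± 4352 CPM for B73 and 3689 ± 1803 CPM for W9706 (SD, n = 3). By count, with no correction for gene length, PEPC ranked 2 in each B73 library and 7, 9 and 31 in W9706 replicates 1 to 3. Only 2.55% of all genes tested had a log2 fold change as low as that of PEPC, and among the 100 most abundant genes 3 did, PEPC and CA-44099 included.

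NADP-MDH was the steadiest of the 5 genes among B73 libraries. It had 1548, 1441 and 1516 CPM in B73 and 888, 847 and 684 CPM in W9706. The highest B73 value was 1.07 times the lowest, and the lowest B73 value was 1.62 times the highest W9706 value. Its log2 fold change was -0.90 ± 0.15 (SE, edgeR adjusted p of 0.00318). By count it ranked 57 to 61 in B73 and 75 to 118 in W9706.

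PPDK, which regenerates the acceptor of PEPC, had the highest mean CPM of all genes tested. It had 33457, 26786 and 35858 CPM in B73 and 12968, 11306 and 9525 CPM in W9706, and the lowest B73 library was 2.07 times the highest W9706 library. The log2 fold change was -1.51 ± 0.23 (SE, edgeR adjusted p of 0.00227), with means of 32034 ± 4701 CPM for B73 and 11266 ± 1722 CPM for W9706 (SD, n = 3). By count PPDK ranked 1 in all 3 B73 libraries and in W9706 replicate 1, 2 in W9706 replicate 2 and 3 in W9706 replicate 3. In B73 replicate 3 every 31.2 assigned counts held 1 of PPDK, and in W9706 replicate 3 every 95.4 did.

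**Figure D2:**
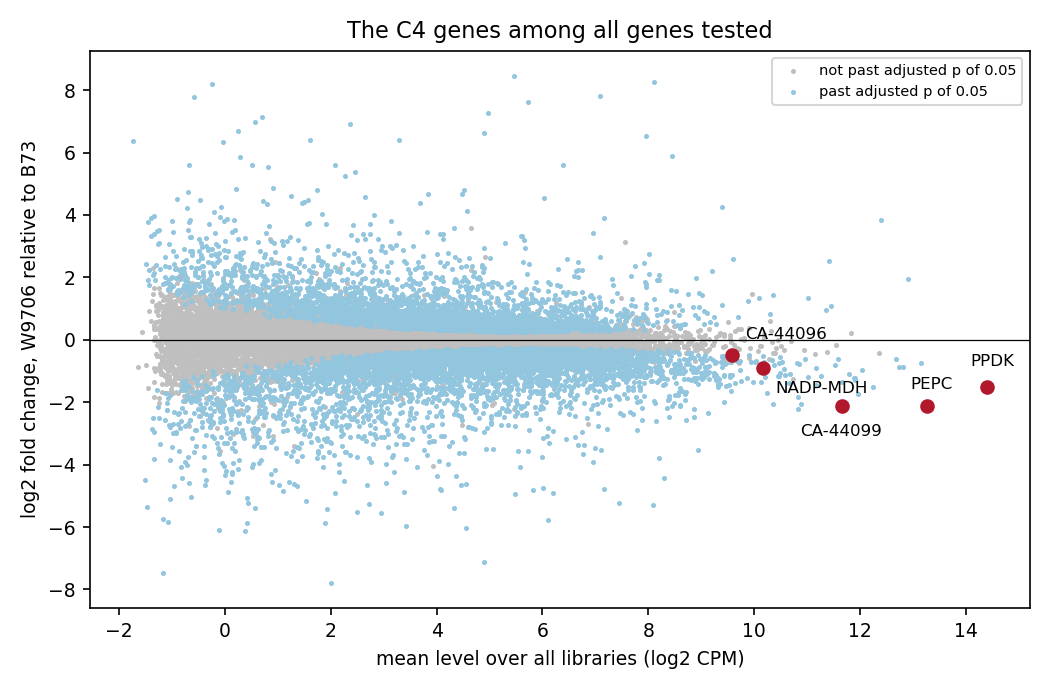
Log2 fold change of W9706 relative to B73 against the mean level over all libraries in log2 CPM, for the 22135 genes tested (blue past an edgeR adjusted p of 0.05, grey not) with the 5 C4 genes in red. The 5 genes lie at the abundant end of the plot and below 0, from -2.13 for CA-44099 to -0.50 for CA-44096.

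Together the 5 genes took 5.77%, 4.17% and 5.18% of assigned counts in B73 (replicates 1, 2 and 3) and 2.37%, 2.03% and 1.43% in W9706. The 95% Wilson intervals of these shares reach at most 0.0095 percentage points to either side and cover counting error only. The lines did not overlap, at 5.04 ± 0.81% in B73 and 1.94 ± 0.48% in W9706 (SD, n = 3). The exact two-sided permutation p was 0.1, the smallest that 3 against 3 libraries allow. PEPC and PPDK made up 84.4% to 87.7% of the summed counts in every library. The share of the 100 genes with the most counts in each library was 26.3 ± 1.05% for B73 and 21.3 ± 0.42% for W9706. With the C4 genes taken out of that sum it was 21.3 ± 0.23% and 19.5 ± 0.25% (SD, n = 3). The gap between the lines in that measure was 4.95 percentage points with the C4 genes and 1.79 without them. Only C4 genes within the 100 of a library were taken out, 5, 4 and 4 in B73 and 4, 4 and 2 in W9706 (replicates 1, 2 and 3). The sums without them therefore cover unequal numbers of genes, and the lists of 100 were drawn up for each library apart.

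**Figure D3:**
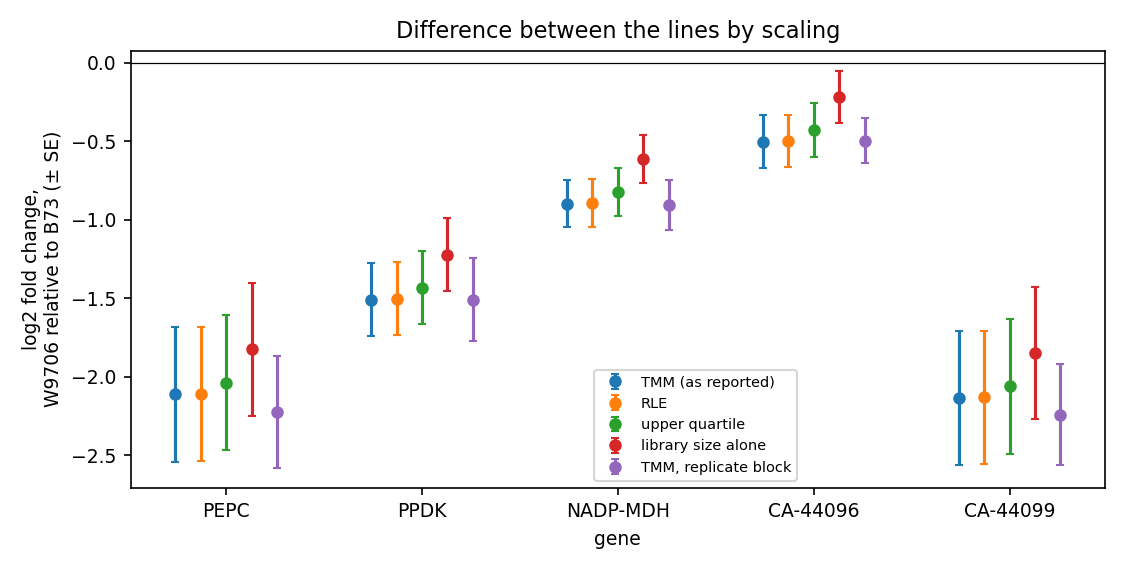
Log2 fold change of W9706 relative to B73 with its SE for each gene under TMM, RLE and upper quartile scaling, under library size alone, and under TMM with the replicate number as a block. Values for PEPC, PPDK, NADP-MDH and CA-44099 lie below -0.5 under each, while CA-44096 moves from -0.50 with TMM to -0.22 with library size alone.

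The size of the difference varied between the genes, and ratios of counts within a library describe this without any scaling. A ratio depends on gene length, so its change between libraries is read here and not its value. In 9 of the 10 pairs of genes the ratios of the lines did not overlap. Each of these had an exact two-sided permutation p of 0.1, the lowest that 3 against 3 libraries can give. After Benjamini-Hochberg adjustment over the 10 pairs this p was 0.111. All 10 ratios come from the same 5 genes, so they are not independent. How often the lines are apart in pairs of other tested genes was not computed, so the count of 9 has no background. PPDK to NADP-MDH was 18.6 to 23.7 in B73 and 13.3 to 14.6 in W9706, a ratio 1.52 times as high in B73. NADP-MDH to CA-44096 was 1.43 to 1.84 in B73 and 1.23 to 1.28 in W9706, 1.33 times as high in B73.

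PEPC to PPDK was 0.618, 0.453 and 0.419 in B73 and 0.396, 0.377 and 0.175 in W9706. Without W9706 replicate 3 the ratio was 1.27 times as high in B73 as in W9706, against 1.65 times with it. The nearest libraries of the lines, B73 replicate 3 and W9706 replicate 1, were close together. CA-44096 to CA-44099 moved the most, from 0.156 to 0.198 in B73 to 0.415, 0.486 and 1.00 in W9706 replicates 1 to 3. In B73 the counts of CA-44099 were thus several times those of CA-44096, and in W9706 replicate 3 the genes had nearly equal counts, 19534 and 19595. Over the line means CA-44096 to CA-44099 was 3.36 times as high in W9706, and 2.57 times without W9706 replicate 3.

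**Figure D4:**
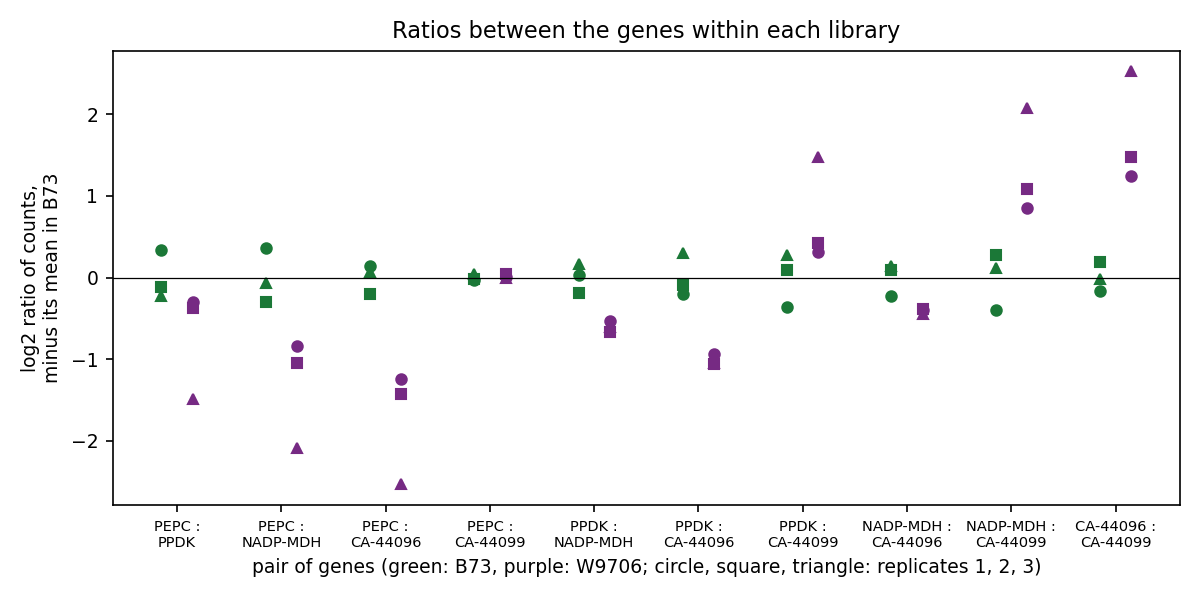
Log2 ratio of the counts of 2 genes in the same library, minus the mean of that ratio in B73, for all 10 pairs of the 5 genes (green for B73, purple for W9706). The 6 libraries lie within 0.075 of each other for PEPC to CA-44099, the lines are apart in the other 9 pairs, and W9706 replicate 3 (triangle) lies farthest out in pairs of PEPC or CA-44099 with another gene.

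PEPC and CA-44099 kept nearly the same ratio in all libraries. It was 2.98, 2.99 and 3.14 in B73 and 3.05, 3.13 and 3.02 in W9706, and the lines overlapped (exact two-sided permutation p of 0.6, and 0.6 after adjustment over the 10 pairs). The highest ratio was 1.05 times the lowest, while each gene alone ranged 10.2-fold (PEPC) and 10.3-fold (CA-44099) over the 6 libraries by library totals. Differences between a W9706 and a B73 library ranged from -0.06 to 0.07 on the log2 scale. The SD of the log2 ratio over the 6 libraries was 0.033, and counting error alone gives 0.0041 to 0.012 per library.

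Among the other tested genes with a mean CPM of at least 1, 19986 in all, CA-44099 had the steadiest ratio to PEPC. The SD of its log2 ratio to PEPC was the smallest, the next smallest was 0.088, and the median gene had 1.38. PPDK had an SD of 0.60 by this measure (place 381), NADP-MDH 0.87 (place 1294) and CA-44096 1.05 (place 2797). This SD takes in the difference between the lines, so a gene with a fold change unlike that of PEPC gets a large SD even where it rises and falls with PEPC. It also takes in counting error, which is larger for genes with fewer counts. Genes with few counts are thus unlikely to reach so small an SD, and CA-44099 was at place 18 by mean CPM. In the other direction PEPC also had the smallest SD of all genes against CA-44099. The SD was chosen as a measure after the ratios had been seen. By Pearson correlation of log2 CPM over the 6 libraries CA-44099 came first too (0.9997). NADP-MDH came at place 336 (0.978), PPDK at place 928 (0.955) and CA-44096 at place 1024 (0.951), another order than by the SD. Zm00001d017037, for which no name was paired, was the nearest gene outside the 5 (0.9989), at 25.5 CPM in B73 and 10.5 CPM in W9706. PPDK and NADP-MDH each had a gene outside the 5 at a still higher correlation (0.99984 and 0.99991), so values this high were not particular to PEPC and CA-44099. The lines form separate clusters of libraries, so these correlations describe likeness over 6 libraries and are no test, and 1047 genes reached at least 0.95 against PEPC. With the mean of each line taken from log2 CPM, CA-44099 came at place 5 for PEPC (0.9986), and PEPC at place 3 for CA-44099. NADP-MDH then came at place 112 for PEPC (0.981), CA-44096 at place 1629 (0.845) and PPDK at place 2123 (0.805).

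**Figure D5:**
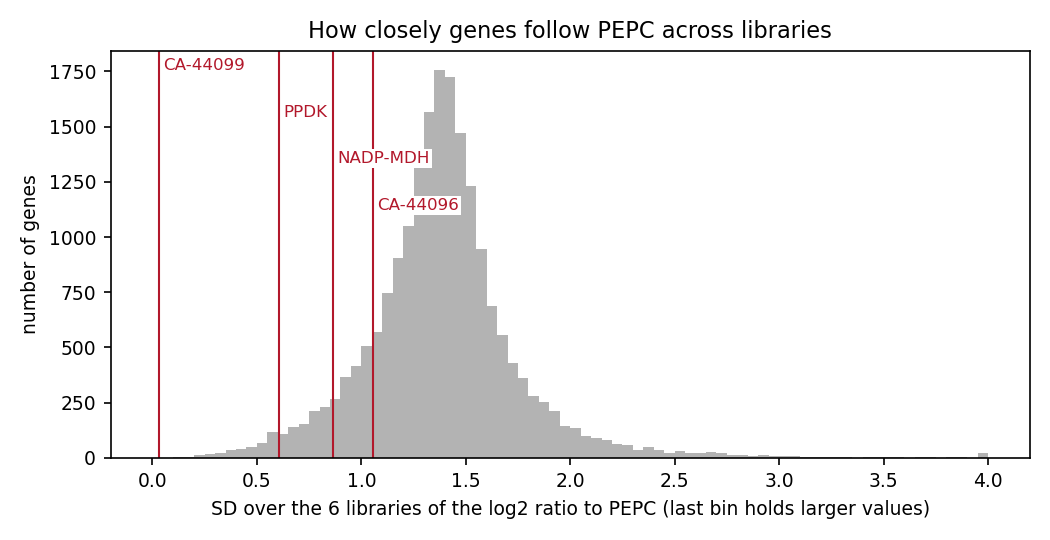
Number of genes by the SD, over the 6 libraries, of their log2 ratio to PEPC, for 19986 genes at a mean CPM of at least 1, with the other 4 C4 genes as red lines. CA-44099 lies at 0.033, the smallest of all, while PPDK, NADP-MDH and CA-44096 lie at 0.60, 0.87 and 1.05.

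The spread within a line also separated the genes. Among W9706 libraries the highest value was 3.08 times the lowest for PEPC and 3.04 times for CA-44099, but 1.36 times for PPDK, 1.30 times for NADP-MDH and 1.26 times for CA-44096. W9706 replicate 3 lay below the mean of the other W9706 libraries by 1.49 on the log2 scale in PEPC and by 1.45 in CA-44099. Of all genes tested, 0.895% and 0.989% were as low or lower in that library by this measure, against 13.5% for PPDK, 13.7% for NADP-MDH and 16.8% for CA-44096. In B73, replicate 1 lay above the mean of the other libraries by 0.62 in PEPC and 0.66 in CA-44099, values that 7.40% and 6.67% of genes reached. Without W9706 replicate 3 the log2 fold changes were -1.76 for PEPC and -1.79 for CA-44099, and both kept their call (edgeR adjusted p of 0.00314 and 0.00266).

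Carbonic anhydrase genes are known to resemble each other, and reads that align to several places were listed as 0 in all libraries. Reads shared by near-identical copies may therefore be missing from both counts. The identifiers numbered between them, Zm00001d044097 and Zm00001d044098, had 0 counts in every library, and Zm00001d044100 had 1 to 43. Zm00001d044095, the number before CA-44096, had 167 to 246 counts in B73 and 37 to 64 in W9706, with a log2 fold change of -2.53 ± 0.21 (SE, edgeR adjusted p of 0.000223). None of these 4 identifiers was paired with a name. The count made without regard to strand differed from the sum of the strand columns by at most 8 counts for any of the 5 genes in any library, so overlapping genes on the other strand took almost no reads. By strand, 49.2% to 50.6% of the counts fell in the first strand column for PEPC, PPDK, NADP-MDH and CA-44099, and 51.4% to 53.1% for CA-44096.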

How the data were processed

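The authors deposited whole-number counts per gene for each library, in the layout of STAR's gene count table. The submitters' processing notes name STAR. No version, genome build or annotation is given in the sources used here. Libraries were made with a kit that does not mark strand, per the labels' protocols, and the unstranded column was used. Library sizes leave out the 4 summary lines (unmapped reads 12.7% to 13.8%, no feature 3.68% to 4.33%, ambiguous 1.06% to 1.16%). A count of 0 allows up to 0.0935 to 0.142 CPM, from 3 counts of a library's total.

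The test was edgeR 4.0.16 (R 4.3.3) on the whole table (filterByExpr by group, TMM, robust quasi-likelihood F test, Benjamini-Hochberg adjustment over all genes tested, threshold 0.05). A standard error is the log2 fold change divided by the square root of F. It was run on simulated data first. Shares and ratios were compared by exact permutation tests. Alternatives were DESeq2 1.42.0, other scalings, no filter, each strand column, each library left out and a replicate block. Same-numbered libraries of the lines deviated together weakly (correlations of deviations from the line means 0.218, 0.111 and 0.131, over all genes tested). Libraries of unlike number gave -0.229 to 0.107. Deviations within a line cancel out, so these values are not independent and do not establish a pairing. The replicate block took the numbers as pairs, while the main test and the permutation tests did not. The labels do not say what a number marks. The named genes were the 5 members, the identifiers numbered beside the carbonic anhydrases, and the gene most like PEPC by correlation. For the other members that gene is not named. The members and lists were chosen with earlier results of these data known.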

Additional observations from a re-analysis of the deposited data

How the results depend on the processing

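PEPC, PPDK, NADP-MDH and CA-44099 kept their direction and their call in all 15 alternatives run, with log2 fold changes of -2.58 to -1.76, -1.72 to -1.22, -0.99 to -0.61 and -2.60 to -1.79. CA-44096 was negative in all 15 and called in 5 of them (RLE, no filter, DESeq2, the first strand column and the replicate block), with adjusted p of 0.00829 to 0.306. It lost its call with upper quartile scaling (-0.43), library size alone (-0.22), the second strand column (-0.49), without each library in turn (-0.57 to -0.35), and without B73 replicate 2 and W9706 replicate 1 together (-0.63), an alternative added once the data had been seen. Of the C4 genes the number called was therefore 4 or 5 (4 in every fit without a library), and that of all genes 5132 (without W9706 replicate 2) to 10787 (library size alone) against 7564. With the replicate block 8047 genes and all 5 C4 genes were called, and no call among the 5 changed. The difference in summed share, -3.09 percentage points, was -3.80 to -2.55 with other denominators, -3.05 in each strand column, and -3.53 to -2.73 without a library. Pairing the libraries by number cannot change this difference, because the lines have equally many libraries. The count of pairs of genes whose lines did not overlap was 9 in each strand column. Leaving out a library could not lower it, since lines that are apart stay apart with fewer libraries. It was 10 without B73 replicate 3 and 9 without any other library. The 5 genes had at least 15477 counts in every library, so their error comes mostly from the spread between libraries.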
